A study of Mus musculus with 12 samples.

Results

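The complement genes of the nCounter mouse immune panel were examined in microglia, the resident macrophages of the brain, sorted from the hippocampus of control male mice of the strain Balbc. Of 31 listed complement components, regulators and receptors, 29 have a row of that name in the table of 545 immune genes and were taken as members; C3ar1 and C5ar1 were not analysed here. The samples were 6 animals at postnatal day 14 (P14) and 6 at postnatal day 28 (P28), each from a different litter, raised under control conditions with no treatment or transgene named. Microglia were enriched on a Percoll gradient and by flow sorting, and barcodes bound to each target RNA were counted after a short cDNA amplification. The comparison asks which of these genes differ between the ages during the maturation of hippocampal microglia. In bulk RNA of a sort, fewer cells of a type and less RNA per cell cannot be told apart.

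Complement is a cascade of plasma and tissue proteins that tags surfaces for uptake and can pierce membranes. The classical pathway starts when C1q, built from the A, B and C chains, binds a surface and activates the proteases C1r and C1s; the lectin pathway starts from mannose-binding lectin and the MASP proteases; the alternative pathway amplifies through factor B, factor D and properdin. All routes converge on C3, the terminal proteins C5 to C9 form the membrane attack complex, and regulators such as factor I limit the cascade. In the developing brain, microglia are a main source of C1q, and C1q and C3 are known for marking synapses for removal.

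A member was counted as detected in a lane when its raw count lay more than 2 SD over the average of the lane's 8 negative probes, and it was tested between ages when it was detected in at least 40% of the 12 lanes. Of the 29 members, 11 met that rule, or 37.9%, against 67.2% of all 545 genes. By role, the tested members were 5 of 7 in the classical pathway, 2 of 3 in the lectin pathway, 1 of 4 in the alternative pathway, 1 of 7 in the terminal pathway, 2 of 7 regulators and 0 of 1 receptors. The classical group includes C1qbp, which was placed there for its name. Most of the tested members thus belong to the groups of the classical and lectin routes of entry. In all 12 lanes, 8 members were detected: C1qa, C1qb, C1qbp, C1ra, C2, Masp2, Cfp and Clu. Another 8 were detected in no lane: Mbl2, Cfd, C8a, C8b, Hc, Serping1, C4bp and Cr2. The other 13 lay between, and 10 of these were detected in 1 to 4 lanes only. The number of members detected per lane ranged from 9 to 16 at P14 and from 10 to 12 at P28, so the ages overlapped. The lane thresholds ran from 12.9 to 32.0 counts at P14 and from 24.8 to 33.4 at P28. For a low count, a difference between the ages in the number of lanes detected is therefore no measure of a change in level. None of the 96 negative-probe readings exceeded its own lane's threshold. Each threshold was set from those same readings, so this is no check on the rule.

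**Figure D1:**
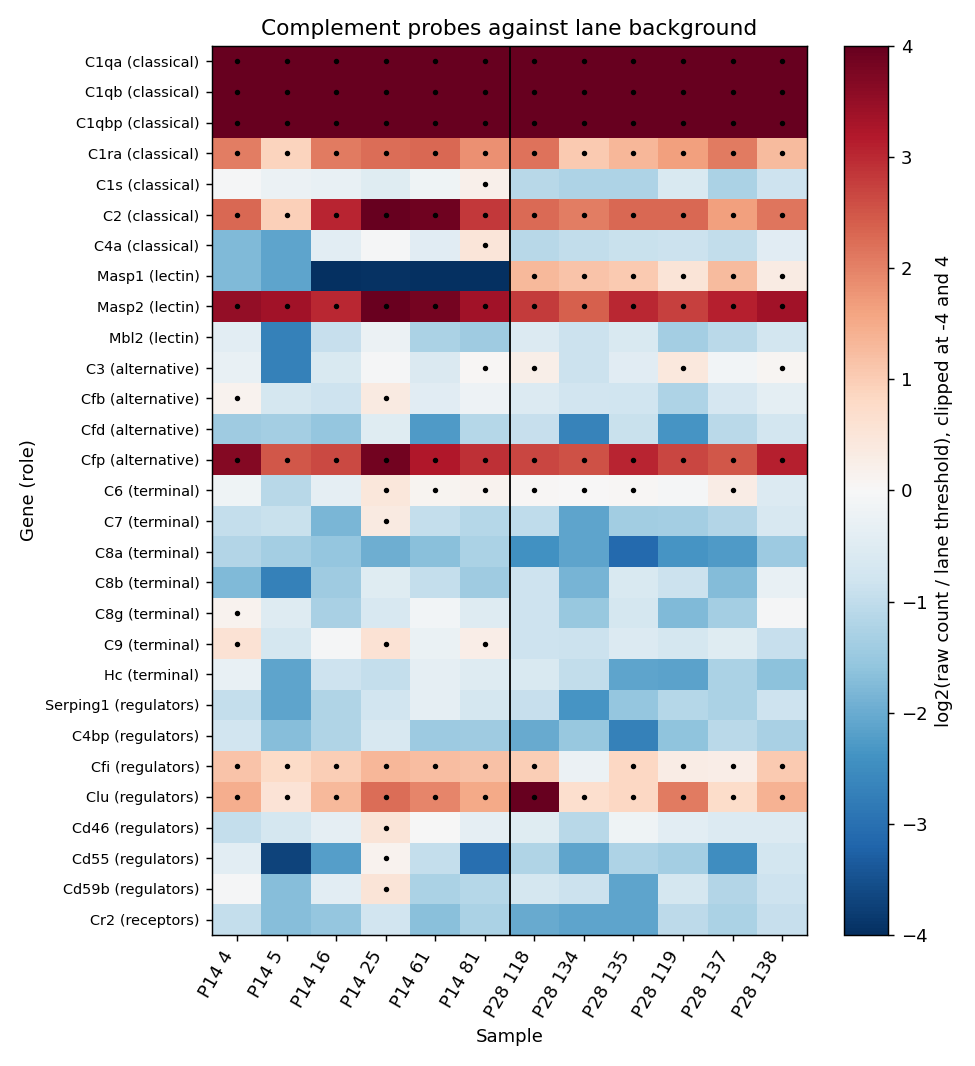
Each square is 1 member (row, with its role) in 1 sample (column); colour gives the log2 of the raw count over the lane threshold, clipped at both ends of the scale, and a black dot marks a count above the threshold. C1qa, C1qb and C1qbp are far above the threshold in every lane, Masp1 is below it in all 6 P14 lanes and above it in all 6 P28 lanes, and most terminal genes and regulators lie near or below it.

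Total counts of the 545 genes ran from 356398 to 1316430 at P14 and from 1025196 to 1534665 at P28. The counts of the 6 positive-control probes, which are added in equal amount to every lane, summed to between 14924 and 20649 in the P14 lanes and between 36530 and 41574 in the P28 lanes, with no overlap, so a difference between the lanes' readings and age cannot be told apart. Levels below are raw counts scaled to the geometric mean of 6 reference genes (Alas1, Gapdh, Oaz1, Polr1b, Sdha and Tbp). On that scale 112 of 366 tested genes, or 30.6%, passed edgeR's quasi-likelihood test at a Benjamini-Hochberg FDR of 0.05; 16.7% passed as higher and 13.9% as lower at P28. Of the microglia markers fixed for the sort, 6 of 10 have a row and all 6 were detected in every lane, with a summed level of 177352 to 205936 at P14 and 183113 to 223180 at P28 scaled counts. Markers of other cells had counts too. Of those listed for endothelial and mural cells, 4 of 6 have a row, with a summed level of 2110 to 3362 at P14 and 1879 to 2959 at P28. The sum hides opposite moves by edgeR: Cdh5 was lower at P28 (-0.63, adjusted p = 0.00553) and Pdgfrb higher (0.41, adjusted p = 0.0296). Summed levels at P14 and P28 were 395 to 620 and 236 to 353 for B cell markers. They were 158 to 356 and 204 to 344 for monocytes and border macrophages, 82.8 to 141 and 103 to 151 for T cells, and 87.7 to 129 and 73.4 to 97.3 for neutrophils. Which cells the counts of low members came from was not tested.

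Promoter sequences are shown for 1 gene that was detected in all 12 lanes from each route of entry: C1qb of the classical, Masp2 of the lectin and Cfp of the alternative pathway. They come from RefSeq (GRCm38.p6, a C57BL/6J reference, another strain than the mice used), where 20 of the 29 members have an entry, and run from 250 bases before to 50 bases after the gene's start, 5′ to 3′ on the gene's strand. C1qb lies on the minus strand at chr4:136886151-136886450, Masp2 on the plus strand at chr4:148602294-148602593 and Cfp on the minus strand at chrX:20931506-20931805. Capitals mark GAGGAA or its reverse complement TTCCTC, the core of the sites bound by PU.1, a transcription factor of macrophages.
C1qb: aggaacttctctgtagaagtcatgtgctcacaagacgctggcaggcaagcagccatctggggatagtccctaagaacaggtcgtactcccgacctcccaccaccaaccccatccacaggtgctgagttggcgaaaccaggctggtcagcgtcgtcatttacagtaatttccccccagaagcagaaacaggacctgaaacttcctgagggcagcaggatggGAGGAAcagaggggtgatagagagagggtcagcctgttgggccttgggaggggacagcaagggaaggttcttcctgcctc
Masp2: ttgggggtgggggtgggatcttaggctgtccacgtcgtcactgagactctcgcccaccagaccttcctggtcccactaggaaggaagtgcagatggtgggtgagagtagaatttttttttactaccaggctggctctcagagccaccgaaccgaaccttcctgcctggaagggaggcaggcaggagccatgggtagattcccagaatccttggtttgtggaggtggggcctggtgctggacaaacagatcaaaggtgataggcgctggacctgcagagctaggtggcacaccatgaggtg
Cfp: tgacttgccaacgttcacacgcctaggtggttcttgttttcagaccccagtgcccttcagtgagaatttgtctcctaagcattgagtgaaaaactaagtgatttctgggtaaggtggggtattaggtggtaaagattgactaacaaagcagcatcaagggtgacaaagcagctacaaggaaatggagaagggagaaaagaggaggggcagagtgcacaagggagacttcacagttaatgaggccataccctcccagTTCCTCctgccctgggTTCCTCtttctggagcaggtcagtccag
GAGGAA was found on 1 strand or the other in 28.3% of all 32851 promoter windows of 300 bases. The C1qb window holds 1 match, which begins 30 bases before the start, and the Cfp window holds 2, which begin at bases 7 and 23 of the transcript; the Masp2 window holds 0. Among 5 members detected in all 12 lanes with an entry, C1qb, C1ra and Cfp had a match and C1qbp and Masp2 had none. Among 7 members detected in no lane with an entry (C4bp, C8a, C8b, Cfd, Cr2, Hc and Mbl2), 0 had one. Another core, GGAAGT, was in 23.8% of all windows, in C1qb and Masp2 of the first set and in Cr2 of the second. The TATA box TATAAA, in 13.6% of all windows, was found among these 12 members in Hc alone, and the GC box GGGCGG, in 35.7%, in C1qbp and Cr2. These are matches of letters in a window and describe no binding.

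Of the 11 tested members, 1 was higher at P28, 0 were lower and 10 did not pass, against backgrounds of 16.7% and 13.9% of all tested genes. The member that rose was Masp1, which met the rule for testing through its P28 lanes alone. DESeq2 on the same scaling also called 1 higher and 0 lower, and so did limma on log2 scaled counts. By edgeR's unadjusted p, 4 of the 11 were under 0.05 (Masp1, C2, C6 and Clu), against 158 of the 366 genes. The median log2 fold change of the 11 members was -0.0019, beside 0.0026 for all 366 genes. The members that reached the rule for testing are a part of the 29, so these counts do not speak for the others.

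**Figure D2:**
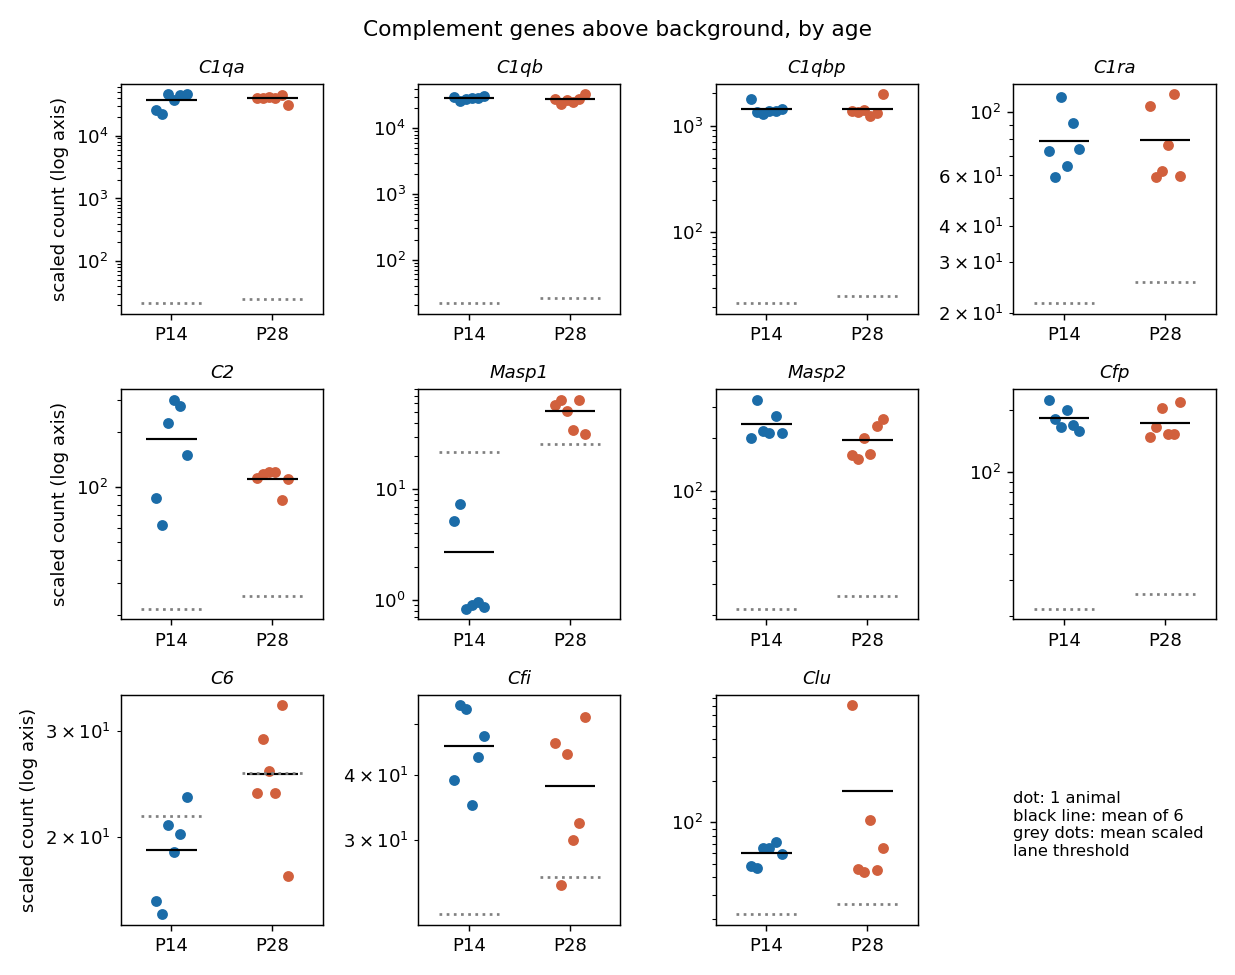
Scaled counts (log axis) of the 11 tested members at P14 and P28; each point is 1 animal, the black line is the mean of 6 and the grey dotted line is the mean scaled lane threshold of that age. The ages separate for Masp1 only; C1qb is tight at both ages, C2 is spread widely at P14, and 1 P28 animal stands far above the rest for Clu.

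In the classical pathway group, C1qbp included, 0 of 5 tested members passed edgeR's test in either direction, and 1 of 5, C2, had an unadjusted p under 0.05. C1qb, the B chain of C1q, ran from 26271 to 31161 scaled counts at P14 with a median of 29077, and from 23660 to 33114 at P28 with a median of 27240. Its ages overlapped, at 28940 ± 1632 and 27400 ± 3326 (SD, n = 6 each), and the log2 fold change was -0.08 ± 0.10 (SE), with a 95% interval from -0.28 to 0.13. C1qa, the A chain, ran from 22370 to 45681 at P14 (median 40890) and from 30634 to 43957 at P28 (median 40148). Its fold change was 0.09 ± 0.18, with an interval from -0.29 to 0.48. Neither chain differed between the ages by more than the animals of 1 age differed, and the A chain spread more widely than the B chain at P14. Together the probes of these chains took 6.27% ± 0.64 of a lane's immune gene counts at P14 and 5.76% ± 0.49 at P28.

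The other members of the classical group were far less abundant in counts, which, without the probes' efficiencies, is not a comparison of RNA levels between genes. C1ra, the protease C1r, ran from 59.4 to 112 at P14 (median 73.6) and from 59.3 to 115 at P28 (median 69.3), with a log2 fold change of 0.00 ± 0.21. C1qbp, a mainly mitochondrial protein named for binding C1q, ran from 1288 to 1765 at P14 and from 1237 to 1971 at P28 (0.02 ± 0.13). Both genes covered nearly the same range at the 2 ages. C1s, the protease that C1r activates, was detected in 1 of 6 lanes at P14 and 0 of 6 at P28, and C4a in 1 of 6 and 0 of 6, so neither was tested. C1s, C1r and C4 have near-identical copies in the mouse genome, and CD59 is encoded by more than 1 gene. Whether the probes tell such genes apart was not tested.

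C2, the protease subunit of the classical and lectin C3 convertase, ran from 61.8 to 300.4 scaled counts at P14 with a median of 186, and from 85.0 to 121 at P28 with a median of 115. The P28 animals lay close together inside the wide P14 range, in which samples 4 and 5 were the 2 lowest at 87.3 and 61.8. The log2 fold change was -0.74 ± 0.32 and did not pass (adjusted p = 0.0923 by edgeR). Without P14 sample 5 it was -0.90 (adjusted p = 0.0148), without P14 sample 4 -0.88 (adjusted p = 0.0357), and without both, an alternative chosen after seeing the data, -1.10 (adjusted p = 0.00042). Leaving out other single samples gave no call. With all 12 samples kept, C2 passed as lower when scaled to total counts (-0.86, adjusted p = 0.0354) or to positive controls alone (-1.59, adjusted p = 0.0119). The call on C2 therefore depended on the scaling and on those 2 animals, which also had the lowest levels of the reference gene Gusb in the series, as described below.

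In the lectin pathway, Masp1 was higher at P28 in every animal. The gene encodes MASP-1, a protease that activates MASP-2, and by alternative splicing also MASP-3, a protease of the alternative pathway; the sources used here do not say which product the probe reads. At P14 its raw counts were 4 and 3 in samples 4 and 5 and 1 in each of samples 16, 25, 61 and 81. At P28 they were 80, 57, 54, 44, 80 and 31 in samples 118, 134, 135, 119, 137 and 138. The ages did not overlap, as was the case for 12.8% of all tested genes in the same direction and 7.92% in the other; of the 11 tested members, 1 and 0 did so. Detection was 0 of 6 lanes at P14 and 6 of 6 at P28, so Masp1 met the rule for testing through its P28 lanes alone. The P28 mean of 50.6 ± 14.4 scaled counts was 2.34-fold the mean scaled P14 threshold, a lower bound for the fold between ages. The adjusted p was 9.14e-07 by edgeR, with every P14 count below its lane threshold. The call was the same in 28 alternatives in which Masp1 was tested, positive controls alone included. They reuse the same counts or a part of them and are no separate support. The authors' deposited table of 336 genes does not list Masp1.

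The P14 counts of Masp1 were low even for a probe with no target. They were at or under the lowest negative probe of the lane in all 6 P14 lanes, as was true of 3 of the 545 genes: Gzmb, Masp1 and S100a9. Only 2 of the 545 genes, Gzmb and Masp1, had at most 4 counts in every P14 lane, and 0 had so in the P28 lanes. At P14, 26 readings over all genes and lanes had a count of 1, and 3 did at P28. Of those 26, 4 were of Masp1 itself. The lanes of the 2 ages thus differed in the number of such low raw readings, with no adjustment for the lanes' totals or background. The part of this in the Masp1 difference was not tested. The run, cartridge and probe lot of each lane are not given in the sources used here. Whether the P14 and P28 lanes shared a lot of the Masp1 probe could therefore not be checked. The smallest P28 count of Masp1, 31 in sample 138, was close to its lane threshold of 24.8.

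**Figure D3:**
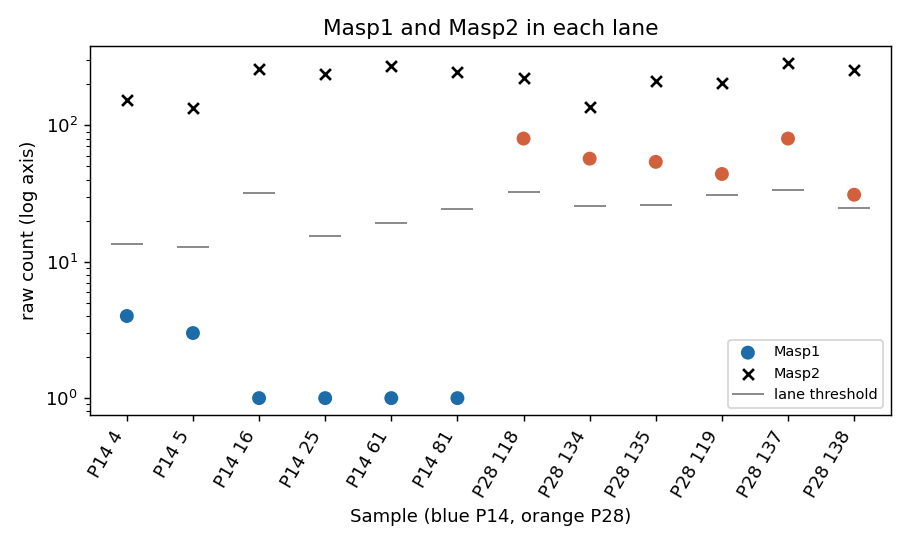
Raw counts (log axis) of Masp1 (circles, blue P14 and orange P28) and Masp2 (crosses) in each sample, with the lane threshold as a grey dash. Masp1 has 1 to 4 counts in the P14 lanes and 31 to 80 in the P28 lanes, while Masp2 lies between 133 and 288 counts throughout.

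Masp2, the protease that cleaves C4 and C2, ran from 199 to 329 scaled counts at P14 (median 216) and from 152 to 257 at P28 (median 181). The ages overlapped and the log2 fold change was -0.30 ± 0.17 (adjusted p = 0.205 by edgeR). Mbl2, a mannose-binding lectin that would recruit these proteases, had raw counts of 2 to 17 at P14 and 12 to 22 at P28 and was detected in no lane. Of the 3 lectin pathway genes, the protease genes were thus measurable at P28 and the recognition gene was not detectable in these lanes.

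In the alternative pathway, properdin (Cfp), which stabilises the C3 convertase, was the only tested gene. It ran from 158 to 225.5 scaled counts at P14 (median 175) and from 148 to 219 at P28 (median 160), with a log2 fold change of -0.07 ± 0.14. The ranges of the ages nearly coincided. C3, the protein on which all pathways converge, had raw counts of 2 to 25 at P14 and 14 to 41 at P28. It exceeded the threshold in 1 of 6 lanes at P14 and 3 of 6 at P28, in samples 118, 119 and 138, and fell short of the rule for testing by 1 lane. With no filter on low counts its log2 fold change was 0.69 (adjusted p = 0.0377), a value formed mostly from counts at background. Cfb was detected in 2 of 6 lanes at P14 and 0 of 6 at P28, and Cfd, the protease that cleaves factor B, in none. The raw counts of Cfb were alike at the 2 ages, at 8 to 21 and 13 to 22, while the lane thresholds differed.

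Among the terminal genes, C6, a subunit of the membrane attack complex, was the only one tested. It ran from 14.8 to 23.3 scaled counts at P14 (median 19.6) and from 17.2 to 33.2 at P28 (median 24.7), and was detected in 3 of 6 and 4 of 6 lanes. These counts lay around the threshold, and the log2 fold change of 0.39 ± 0.17 did not pass (adjusted p = 0.0949 by edgeR). It passed without P28 sample 138 (0.47, adjusted p = 0.0386), and also with all 14 reference genes or the authors' factors. C9, the pore-forming subunit, was detected in 3 of 6 lanes at P14 and 0 of 6 at P28, at 15.4 to 26.1 and 12.9 to 19.4 scaled counts. C7 and C8g were each detected in 1 P14 lane, and C8a, C8b and Hc, which encodes C5, in none. None of the 7 terminal genes was thus detected in more than 4 of 6 lanes at either age.

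Of the regulators, 2 of 7 were tested and neither passed. Cfi, the protease factor I that inactivates C3b and C4b, ran from 35.1 to 54.4 scaled counts at P14 (median 45.4) and from 24.6 to 51.6 at P28 (median 38.1), with a log2 fold change of -0.24 ± 0.19. The ages overlapped over most of their range. Serping1, the C1 inhibitor, and C4bp, a cofactor of factor I, were detected in no lane, and the membrane regulators Cd46, Cd55 and Cd59b each in 1 P14 lane, that of sample 25. Sample 25 had a threshold of 15.5 counts, the third lowest of the series, and the most members detected, 16.

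Clu, or clusterin, an extracellular chaperone that blocks assembly of the membrane attack complex and is made in quantity by astrocytes, ran from 47.0 to 72.3 scaled counts at P14 with a median of 62.4. At P28 it ran from 43.9 to 708 with a median of 55.8. Sample 118 held the value of 708 and sample 119 the next, 103, both above the P14 range. Samples 134, 135 and 137 lay just below that range at 45.9, 43.9 and 45.3, and sample 138 lay inside it at 65.8. The log2 fold change of 1.496 ± 0.66 did not pass (adjusted p = 0.102 by edgeR) and was 0.02 without P28 sample 118. Myelin basic protein, Mbp, was highest in the same animals, at 1091 scaled counts in sample 118 and 724 in sample 119, against 126 to 325 in the other 10. Of the 6 markers listed for myelin, neurons and astrocytes, Mbp and App have a row. Their summed level was 4234 to 6941 at P14 and 6648 to 10129 at P28 in scaled counts. App did not follow Mbp: it was at 6926 in sample 118 and 5924 in sample 119, and highest in sample 138, at 9804. The part of these markers in the Clu values was not tested, and the defining astrocyte markers Gfap and Aqp4 were not analysed here.

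The receptor Cr2, which binds fragments of C3 on B cells, had raw counts of 4 to 15 and was detected in no lane. Of 17 other complement genes listed, 3 have a row and all 3, chains of receptor integrins, were tested. Of these 1 rose, 0 fell and 2 did not pass.

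The receptor integrins that bind C3 fragments share the beta chain Itgb2. Itgax, the alpha chain of complement receptor 4, ran from 24.7 to 73.8 scaled counts at P14 and from 137 to 204 at P28, without overlap (1.91 ± 0.22, adjusted p = 1.33e-05 by edgeR). Itgam, the alpha chain of complement receptor 3, ran from 59088 to 104602 and from 45185 to 82378 and did not pass (-0.37 ± 0.17, adjusted p = 0.113). Itgb2 itself ran from 1387 to 2816 and from 1653 to 2261 (-0.09 ± 0.17). Itgam passed as lower with other scalings: total counts (-0.57, adjusted p = 0.0230), positive controls alone (-1.03, adjusted p = 0.0100) and the reference genes without Polr1b (-0.49, adjusted p = 0.0421). It also passed as lower without P28 sample 138 (-0.49, adjusted p = 0.0294) and without that sample and P14 samples 4 and 5 (-0.26, adjusted p = 0.0399). The alpha chain of receptor 4 therefore rose, the call on that of receptor 3 depended on the scaling and on the animals kept, and the shared beta chain passed in none of these fits.

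Ratios of 2 genes within a lane need no scaling, and 2 of 4 pairs listed had both genes tested. The ratio of C1qb to C1qa raw counts was 1.18 and 1.17 in P14 samples 4 and 5, 1.08 in sample 138 of P28, and 0.60 to 0.79 in the other 9 lanes. It split the samples within each age rather than between ages: the mean log2 ratio was -0.29 ± 0.42 at P14 and -0.52 ± 0.32 at P28, a difference of -0.23 (exact permutation test, two-sided p = 0.247, adjusted over 2 pairs 0.247). The same 3 lanes, picked out after their values were seen, had the 3 lowest levels of C1qa, at 25291, 22370 and 30634 scaled counts against 37004 to 45681 in the other 9. C1qb was not low there, at 29779, 26271 and 33114 against 23660 to 31161. Gusb, a reference gene outside the 6 used for scaling, was at 615, 499.6 and 867 in these lanes against 1175 to 2019 in the other 9. Polr2a, also outside those 6, was at 748, 663 and 1180 against 1168 to 2234. Its value in sample 138 thus lay inside the range of the other 9. Itgam was highest in the same 3 lanes, at 104602, 91769 and 82378 scaled counts against 45185 to 72583. C1qa and Gusb were thus low in the same animals while C1qb was not, and the split was not limited to these genes. The cause was not tested.

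**Figure D4:**
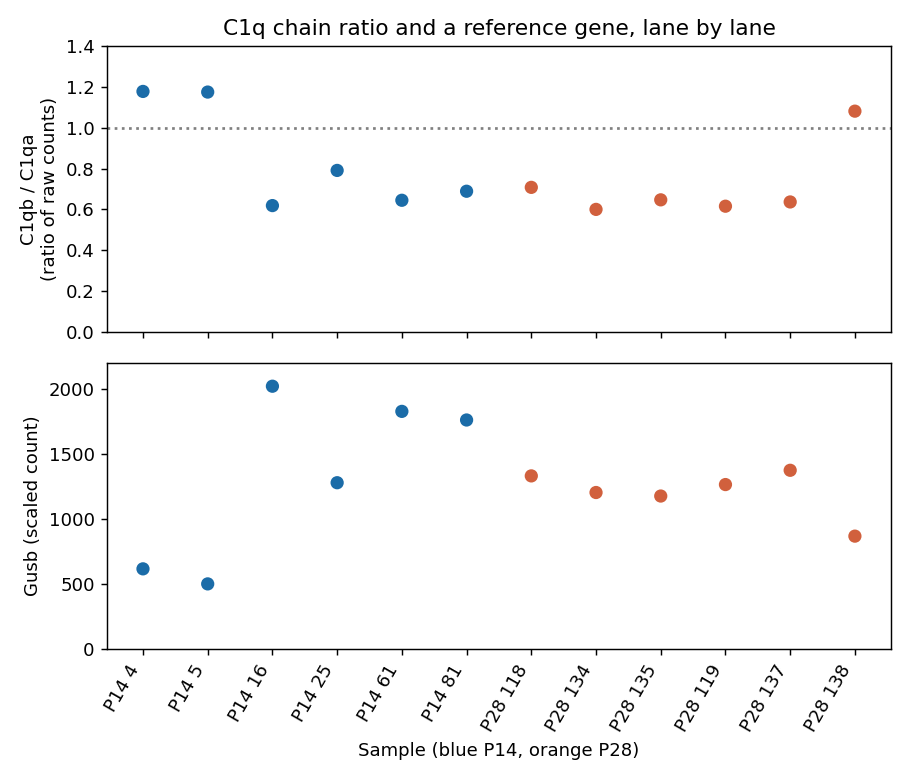
Upper panel, the ratio of C1qb to C1qa raw counts in each sample, with a dotted line at 1; lower panel, the scaled count of Gusb in the same samples (blue P14, orange P28). P14 samples 4 and 5 and P28 sample 138 lie above 1 in the upper panel and hold the 3 lowest Gusb values in the lower panel.

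The ratio of C1qa to Csf1r, the receptor that keeps microglia alive, ran from 0.388 to 0.492 at P14 and from 0.325 to 0.431 at P28. The mean log2 ratio was -1.16 ± 0.13 at P14 and -1.37 ± 0.14 at P28, lower at P28 by a difference of -0.21 (exact permutation test, two-sided p = 0.0238, adjusted over 2 pairs 0.0476). The ages overlapped. The adjusted p was above 0.05 on leaving out any of 10 of the 12 samples, with a difference of -0.25 to -0.16 over the 12 samples left out in turn. The ratio of C1qa to Csf1r thus fell slightly in this test, and leaving out most single animals ended the call. On the scale of the 6 reference genes neither gene passed edgeR's test. The log2 fold change was 0.09 ± 0.18 for C1qa and 0.29 ± 0.17 for Csf1r (adjusted p = 0.212 by edgeR). Csf1r was also lowest in P14 samples 4 and 5 and P28 sample 138. It was at 59808, 45475 and 94270 scaled counts there, against 94323 to 105423 in the other 9.

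Scaling decided the sign of several small differences. With positive controls alone, the median over all 366 genes moved to -0.74 on the log2 scale and that of the 11 members to -0.73; 9 of the 11 were below 0 and 4 passed as lower (C1qb, C2, Cfi and Masp2). With total counts, 3 passed as lower (C1qb, C2 and Masp2). Of all 366 genes, 128 passed as lower with positive controls alone and 96 with total counts. The authors' deposited table gives folds of P28 over P14 for 9 of the tested members: 1.17 for C1qa, 1.03 for C1qb, 1.1 for C1qbp, 1.09 for C1ra, 0.67 for C2, 0.91 for Cfi, 1.03 for Cfp, 3.05 for Clu and 0.88 for Masp2. The smallest p-value among those 9 in the authors' deposited table was 0.1598, for C2. In that table too, no member of the classical group passed 0.05.

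**Figure D5:**
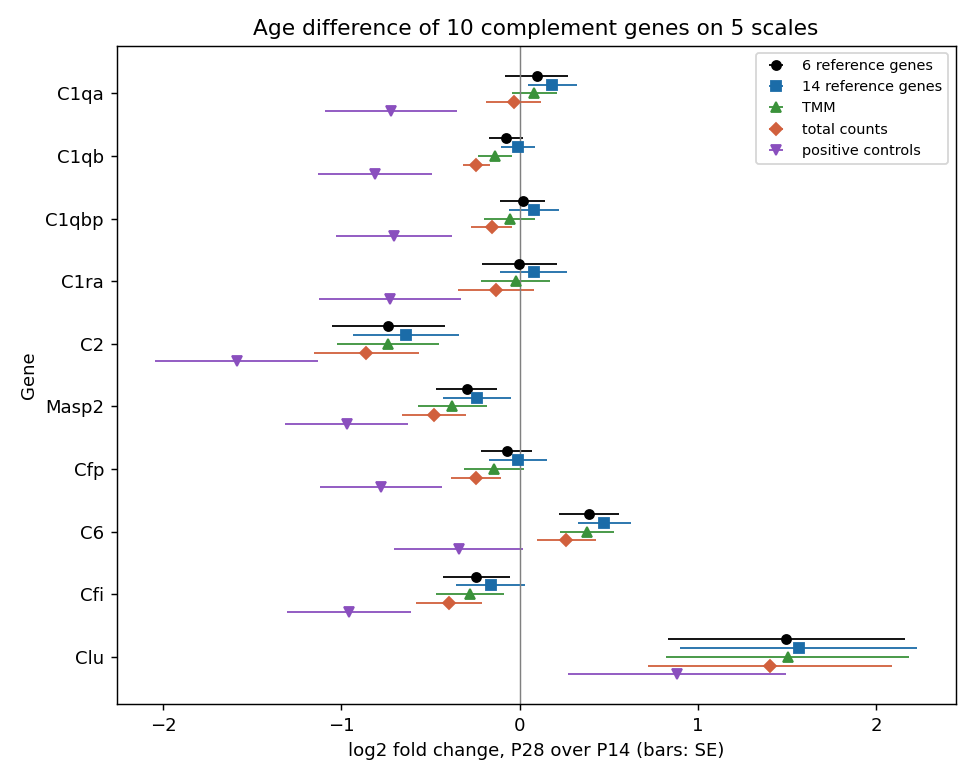
Log2 fold change of P28 over P14 (bars, SE) for the 10 tested members other than Masp1, on 5 scales. Points of the first 4 scales lie close together for each gene, and positive controls alone shift every gene to the left; C2 is below 0 and Clu above 0 on all 5.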

How the data were processed

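The authors deposited a table of raw counts of barcodes per probe, not normalized, and a second table of values they scaled, used here as a score, with a fold (a ratio of means) and a p-value per gene, per the file headers; per the labels, scaling used positive controls and reference genes. The sources used here do not name the counting software. Each sample's 2 ng of RNA went through 5 rounds of PCR, per the labels' protocols, so copies are not independent molecules and counting error is a lower limit. The age in a sample's title set its group. Detected genes were tested with edgeR 4.0.16 in R 4.3.3 (glmQLFit, glmQLFTest) with an offset from the geometric mean of 6 reference genes, a single term for age and p-values adjusted by Benjamini-Hochberg over the 366 genes; the SE is the log2 fold change over the root of F. Where no sample of an age was detected, the fold is a bound against the mean scaled lane threshold. Pair ratios were tested over all arrangements of the samples. The tests were checked on simulated data. Alternatives were DESeq2 1.42.0, limma 3.58.1 on log2 values with a pseudocount of 1 or 10, other scalings, filters and thresholds, background subtraction, and left-out samples. Of 29 members, 28 matched a RefSeq record by accession, C1s under the symbol C1s1. The genes named are all members, the listed other complement genes with a row, the reference genes, the listed markers (Mbp, App, Cdh5, Pdgfrb) and the pair gene Csf1r. Gzmb and S100a9, and Cdh5 and Pdgfrb among the listed markers, were chosen after their values were seen. One further complement gene is not reported here. The members and lists were chosen with earlier results of these data known. There were 0 per-sample columns without a matching sample.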

Additional observations from a re-analysis of the deposited data

Results flagged for a closer look

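In 6 of 26 sets of values, each of 1 measure in the 6 animals of 1 age, 1 animal lay farther from the others than Dixon's 95% limit allows. Chance gives this in about 1 of 20 independent sets. These sets share the same animals and are not independent. P28 sample 118 had 708 scaled counts of Clu, against 43.9 to 103 in the other P28 animals. P28 sample 138 had 30634 scaled counts of C1qa against 39406 to 43957, a C1qb to C1qa ratio of 1.08 against 0.60 to 0.71, and 1971 scaled counts of C1qbp against 1237 to 1403. P14 sample 4 had 1765 scaled counts of C1qbp, against 1288 to 1416 in the other P14 animals. P28 sample 137 had 85.0 scaled counts of C2, against 110 to 121 in the other P28 animals. Sample 138 thus accounted for 3 of the 6 distant values, of which the C1qa count and the ratio share a reading.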

How the results depend on the processing

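Masp1 kept its call in each of the 28 alternatives that tested it, all of which reuse the same counts or a part of them. It was above the threshold in no P14 lane, so its fitted log2 values are no measure of the size. The count of members higher at P28 was 2 with all 14 reference genes, with the authors' factors (C6 joined Masp1 in both), with no filter on low counts (C3 joined) and at an FDR of 0.10 (C6), and 0 with limma on the authors' values, which do not list Masp1. The count lower was 4 with positive controls alone, 3 with total counts, 1 with no filter (C9, above the threshold in no P28 lane, so no fold is given), and 1 at an FDR of 0.10, without P14 samples 4 and 5, and without these and P28 sample 138 (C2 each time). Leaving out each sample in turn gave 1 to 2 higher and 0 to 1 lower. Among all genes tested in the same fits, 56 to 65 were higher and 40 to 60 lower. Of 366 genes, 89 were higher with all 14 reference genes, 93 with the authors' factors and 79 at an FDR of 0.10. With no filter, 67 of 545 were higher. Of 366 genes, 128 were lower with positive controls alone and 96 with total counts. Over the 17 alternatives other than single left-out samples, 26 to 128 genes were lower.

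Small differences that did not pass changed sign. C1qa was -0.031 without Polr1b, -0.034 with total counts, -0.72 with positive controls alone, -0.14 without P14 samples 4 and 5 and -0.077 without these and P28 sample 138. C1qb was 0.045 with the authors' factors and 0.037 with limma on their values. C1qbp was -0.057 with TMM, -0.061 with DESeq2 size factors, -0.10 without Polr1b, -0.70 with positive controls alone, -0.16 with total counts and -0.031 without the 3 samples. C1ra was 0.077 with 14 reference genes, 0.12 with the authors' factors and 0.10 with limma on their values. Cfp was 0.049 with the authors' factors, 0.041 with limma on their values and 0.0051 without P14 samples 4 and 5, and C6 was -0.34 with positive controls alone. With single samples left out, C1qa ran from -0.014 to 0.17, C1qbp from -0.095 to 0.086 and C1ra from -0.14 to 0.13. The causes were not tested.

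The difference in the log2 ratio of C1qa to Csf1r was -0.15 without the 3 samples (adjusted p = 0.190 by the exact permutation test) and -0.25 to -0.16 with single samples left out; that of C1qb to C1qa was -0.092 without the 3 samples (adjusted p = 0.317) and -0.35 to -0.12 with single samples left out, and passed in none of these. Subtracting the negative-probe mean changed neither call. No paired analysis was possible because the ages share no sample numbers. Members with counts near the 8 negative probes are limited by that background.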
